A study of Mus musculus with 26 samples.

Results

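The fragments described here come from the 3′ side of transfer RNAs (tRNAs) in mouse hippocampus. They were chosen from the small RNA count table by annotation alone: entries named after a GtRNAdb tRNA and marked 3_end or CCA_end were taken, and those of Gly and Glu tRNAs were left out. This gave 121 of the 1360 entries of the table, for 44 tRNA names under 21 amino acid labels. Of the 121 entries, 42 are 3_end entries, 43 are CCA_end entries whose reads matched the genome, and 36 are CCA_end entries whose reads did not, as the entry names state.

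All groups were male C57BL/6J mice of 2 to 3 months, without a transgene or drug, and both hemispheres were used. Dorsal (dHC) and ventral (vHC) hippocampus were sequenced as separate libraries from mice that stayed in the homecage (control) and from mice taken 45 mins after the initiation of a 6 min swim in water of 18 °C (swim). The vHC gave 8 control and 6 swim libraries, and the dHC gave 6 of each. The labels also give each library a block, which is a date, and the 3 blocks held 10, 8 and 8 libraries. Each group had 2 libraries in each block, except control vHC with 4 in block 1. The labels do not tie dHC and vHC libraries to the same mouse. Every test treated the libraries as independent, and differences were judged against the spread between libraries.

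A tRNA carries an amino acid on its 3′ end, where the bases CCA are added by an enzyme after the tRNA gene has been transcribed. Mature tRNAs can be cleaved by nucleases such as angiogenin and Dicer, and the pieces are named by their place: 5′ fragments hold the start of the tRNA, 3′ fragments the other side, and CCA fragments reach the added CCA. Cleavage in the anticodon loop is known from cells under stress, and fragments that end in CCA have been described as small regulatory RNAs that can pair with the primer binding sites of retroelements. How the annotation software separates a 3_end read from a CCA_end read is not given in the sources used here. Nor do they state how a CCA_end read can match the genome.

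To show what a tRNA 3′ side looks like, the last 24 bases of a gene are printed for 3 of the tRNAs measured, one in which 3_end and CCA_end counts were close and a pair in which CCA_end counts prevailed. Capitals mark GTTCGAA, a stretch of the T arm in these 3 genes. The added CCA is not part of the gene and is not printed.
Thr-AGT: tggGTTCGAAtcccagcggtgcct
Val-CAC: ccgGTTCGAAaccgggcggaaaca
Ser-GCT: tggGTTCGAAtcccatcctcgtcg
The Thr-AGT sequence is chr7:35234770-35234793, at the end of the tRNA gene n-TTagt9. Those of Val-CAC (chr13:23446142-23446165, n-TVcac9) and Ser-GCT (chr13:22050686-22050709, n-TSgct5) lie on another chromosome. All are on the minus strand of GRCm38, with gene positions from RefSeq, sequence from RefSeq for Thr-AGT and Val-CAC and from GENCODE for Ser-GCT. The strand was read from the motif, so its presence in the printed genes was required. Each gene is 1 of several for its anticodon. Thr-AGT and Ser-GCT share 18 of 24 bases, Thr-AGT and Val-CAC 15, and Val-CAC and Ser-GCT 12. GTTCGAA was searched on both strands and stands in 193 of 32851 promoter windows of 300 bases (0.588%).

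The libraries held between 502251 and 5380775 counts of miRNA, tRNA and rRNA entries (median 2832971). The totals were 1983751 to 3193719 in control vHC, 1837484 to 3488508 in swim vHC, 502251 to 4319444 in control dHC and 1501602 to 5380775 in swim dHC. A count is a distinct pair of read sequence and molecular tag, and levels are given in CPM (counts per 1000000 counts of the library, scaled). Exact intervals of shares below cover counting error only. SE and intervals of fold changes were derived from the test statistic of the edgeR fit, which includes the spread between libraries. For some entries, such as Ala-TGC 3_end, the edgeR p-value was larger than this SE implies, so their intervals may be too narrow. Reads assigned to several tRNAs were shared between them as fractions, so entries of tRNAs with the same 3′ sequence are not independent. The miRNAs of neurons (mir-124, mir-9, mir-128, mir-138 and mir-218) had summed levels between 176500 and 248800 CPM in every library, while liver mir-122 stayed at or under 18.2. Control dHC library 24 had the lowest total, and there 3 counts, the limit that a count of 0 allows, stand for 7.95 CPM.

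The 3′ side made up a small part of the tRNA signal. Over the 26 libraries the 121 entries held 27620 counts, against 270702 in the 48 5_end entries and 1312866 in the 91 whole tRNA entries of the same amino acids. Within a library they held 99.9 to 2413 counts (median 982), or 199 to 532 CPM before scaling, which was 1.55 to 3.77% of the whole tRNA counts. The share was highest in swim dHC library 6 (3.77%, 95% exact binomial interval 3.54 to 4.01%). The end entries of a tRNA never summed to more than its whole entry (2470 of 2470 library values, tolerance 0.05 counts), so the whole entries were taken to contain them. Most ends were a small part of the whole entry, so the check alone cannot prove this.

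Few of the 121 entries were deep enough to compare. A mean of at least 10 counts was reached by 13, 67 had a mean under 1 and held 1.98% of the counts, and 57 were at 0 in at least 13 of 26 libraries. Between 28 and 86 entries had any count in a library, the lowest number in control dHC library 24. The filter on low counts passed 18 entries (6 3_end and 12 CCA_end), which held 87.9% of the counts. The other 103 (12.1%) were not tested, among them every entry of Leu, Arg, Pro, Lys, Ile, Trp, His, SeC, Sup and Undet.

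Asn-GTT led all other tRNAs on the 3′ side. Its 12064 counts were 43.7% of the total, followed by Asp-GTC with 14.1%, Gln-CTG with 10.2% and Met-CAT with 8.40%. Ala-TGC (3.35%) and Thr-AGT (2.79%) came next. By amino acid, Asn, Asp, Gln and Met held 43.7, 14.1, 11.4 and 8.40%, Thr 4.67%, Ala 3.63%, Val 2.69%, and each of the others 2.16% or less. The genome-matched Asn-GTT CCA_end entry alone was 31.8 to 62.2% of the 3′ side counts of a library (median 41.4%). It was over 50% in 2 libraries of block 1, swim dHC library 6 (62.2%, exact interval 59.0 to 65.3%) and control vHC library 1 (55.1%, 51.7 to 58.5%).

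The order of tRNAs on the 3′ side was not that of the 5′ side. A total of 33 tRNA names had more 5_end than 3′ side counts and 11 had fewer. Val-CAC had 35506 counts at the 5′ end and 322 on the 3′ side, a ratio of 110, and Lys-TTT had 34955 and 188, a ratio of 186. Asn-GTT was the reverse, with 1377 counts at the 5′ end, and its 3′ side was 26.1% of its whole tRNA count. Thr-AGT (87.5 at the 5′ end, 770 on the 3′ side) and Gln-CTG (231 and 2814) were also 3′-sided, at 8.02 and 5.78% of their whole count. The median over the 22 names with at least 100 counts on the 3′ side was 1.32%.

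**Figure D1:**
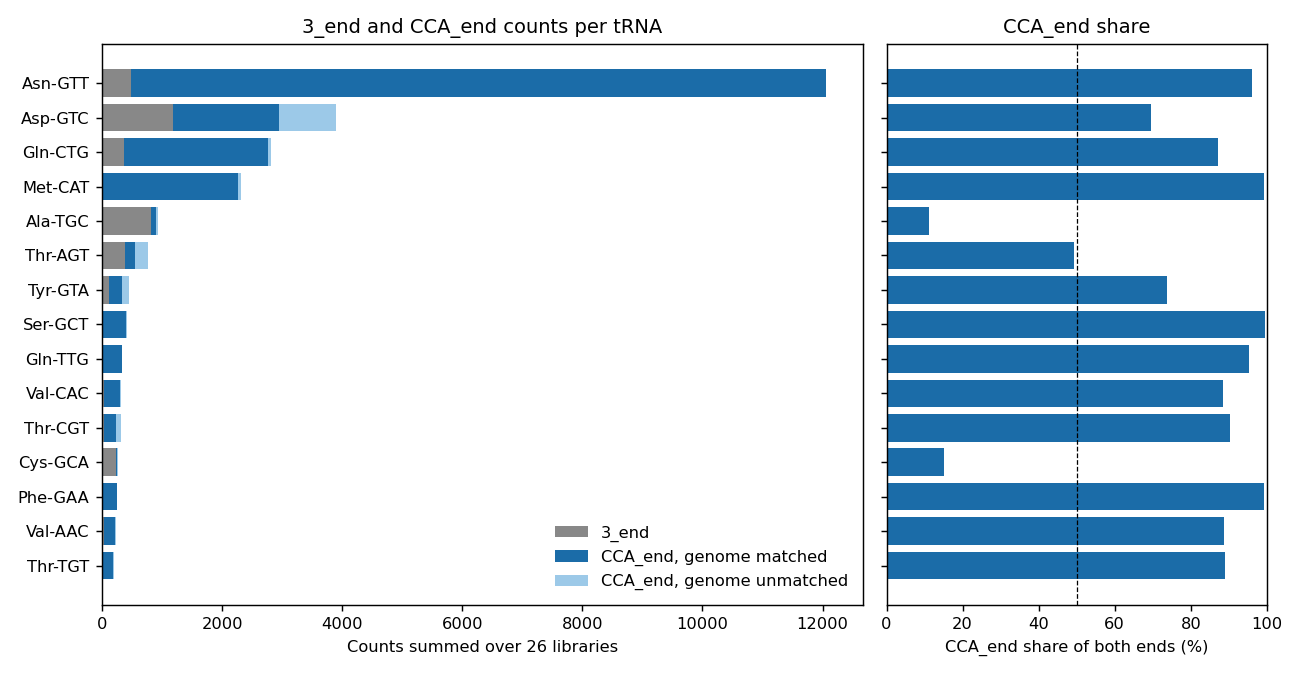
Left, counts summed over 26 libraries for the 15 tRNA names with the most counts on the 3′ side, stacked as 3_end (grey), genome-matched CCA_end (dark blue) and genome-unmatched CCA_end (light blue). Right, CCA_end as a percent of both ends, with a dashed line at 50%. Ala-TGC (11.2%), Cys-GCA (15.04%) and Thr-AGT (49.4%) lie left of the line, and the Asn-GTT bar ends at 12064 counts.

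CCA_end entries outnumbered 3_end entries in every library. They held 23643 counts (85.6%) against 3977 (14.4%), and 80.5 to 89.0% of both ends within a library. Of the 22 names with at least 100 counts, 19 had more CCA_end than 3_end counts. The CCA_end share was 99.5% in Ser-GCT, 99.3% in Met-CAT and Phe-GAA, 96.1% in Asn-GTT and 87.1% in Gln-CTG. It was lower in Asp-GTC, at 69.6%, and in Tyr-GTA, at 73.8%.

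The exceptions were Ala-TGC, Cys-GCA and Thr-AGT. Ala-TGC had 821 3_end counts and 104 CCA_end counts, and its 3_end entry was above the genome-matched CCA_end entry in 26 of 26 libraries. In Cys-GCA the 3_end entry was higher in 25 libraries and the CCA_end share was 15.04%. Thr-AGT had 390 3_end, 161 matched and 219.2 unmatched CCA_end counts, and its 3_end entry was above the matched CCA_end entry in 24 of 26 libraries. The other Thr tRNAs differed from it, since Thr-CGT and Thr-TGT had CCA_end shares of 90.2 and 89.0%.

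The part of CCA_end reads that did not match the genome also depended on the tRNA. It was 4.26 to 13.04% of CCA_end counts within a library. Most CCA_end counts thus matched the genome, although the added CCA is not part of the gene. Whether the matched reads hold the added CCA cannot be told from the counts. Asn-GTT had 5 unmatched counts beside 11584 matched ones (0.0431%), Asp-GTC 938 beside 1769 (34.7%), and Thr-AGT 57.6%. The unmatched part reached 94.2% in Arg-CCT and 51.6% in Trp-CCA, whose counts were low (170 and 100 on the 3′ side).

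Entries of tRNAs that share reads kept nearly fixed ratios. The matched CCA_end counts of Leu-TAG were 0.577 to 0.613 of those of Leu-AAG over the 26 libraries, those of Val-AAC 0.62 to 0.788 of Val-CAC, and those of Pro-AGG 0.778 to 1.15 of Pro-TGG. Such pairs count as close to 1 measurement. Gln-TTG to Gln-CTG was less fixed, at 0.0712 to 0.232.

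The CCA_end to 3_end ratio was tested for the tRNA names in which both the 3_end and the matched CCA_end entry had a mean of at least 10 counts. These were 3: Asn-GTT, Gln-CTG and Asp-GTC. The rule left out names with 1 scarce end. Among them were Ala-TGC, Cys-GCA and Thr-AGT, in which 3_end was above matched CCA_end, and Met-CAT, in which CCA_end prevailed. Within a library, CCA_end exceeded 3_end 28.4-fold in Asn-GTT (log2 4.83, SE 0.137), 6.64-fold in Gln-CTG (2.73, SE 0.143) and 1.47-fold in Asp-GTC (0.56, SE 0.080). All passed (limma on log2 ratios with block as a covariate, Benjamini-Hochberg adjusted p = 9.4e-24, 4.1e-17 and 1.5e-07), and CCA_end was the higher in 26, 26 and 23 of 26 libraries. With a minimum mean of 3 counts, chosen after seeing the data, Thr-AGT (0.408-fold, adjusted p = 8.2e-08) and Tyr-GTA (1.98-fold, adjusted p = 0.00045) also passed in the same test, and Val-TAC (1.26-fold, adjusted p = 0.231) did not. This ratio leaves out unmatched reads, which were 57.6% of CCA_end counts in Thr-AGT, 34.7% in Asp-GTC and 31.3% in Tyr-GTA. With them included, CCA_end was 49.4% of both ends in Thr-AGT, close to even. Over the alternatives, among them summed CCA_end entries, the Asp-GTC log2 value was 0.54 to 1.20. Per library the log2 ratio of matched CCA_end to 3_end counts was 3.28 to 6.38 in Asn-GTT, 1.33 to 4.72 in Gln-CTG and -0.65 to 1.49 in Asp-GTC, so neighbors in this order overlapped at their edges.

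Between groups, the ratio passed for 0 of 3 tRNA names by stress and for 1 of 3 by region. For swim against control in vHC the log2 difference was -0.05 (SE 0.375) in Asn-GTT, 0.11 (SE 0.219) in Asp-GTC and 0.05 (SE 0.392) in Gln-CTG. In dHC it was -0.14 (SE 0.398), 0.32 (SE 0.233) and 0.28 (SE 0.416), and 0 of 3 names passed in either region. In control mice the Asp-GTC ratio was lower in dHC than in vHC, with a log2 difference of -0.58 (SE 0.219, limma with Benjamini-Hochberg adjusted p = 0.0400). The log2 ratio was -0.21 to 1.13 in the 8 control vHC libraries (median 0.78) and -0.65 to 0.53 in the 6 control dHC libraries (median 0.30), so the groups overlapped. Within blocks 1, 2 and 3 the difference was -0.43, -0.77 and -0.71.

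This call was not firm. It was lost without block as a covariate (adjusted p = 0.102), with the exact 2-sided permutation test over libraries (raw p = 0.0503, adjusted p = 0.151) and when any of 9 of the 26 libraries was left out. Those were control vHC libraries 1, 9, 17, 23, 25 and 31 and control dHC libraries 8, 24 and 32, with adjusted p from 0.0584 to 0.182. The swim libraries were not in this contrast, but they shared its fit and so entered its block terms and SE. In them the ratio was 0.39 to 1.49 in vHC (median 0.79) and 0.03 to 1.08 in dHC (median 0.37). Their within-block differences were -0.15, -0.60 and -0.38. No test was run on these.

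**Figure D2:**
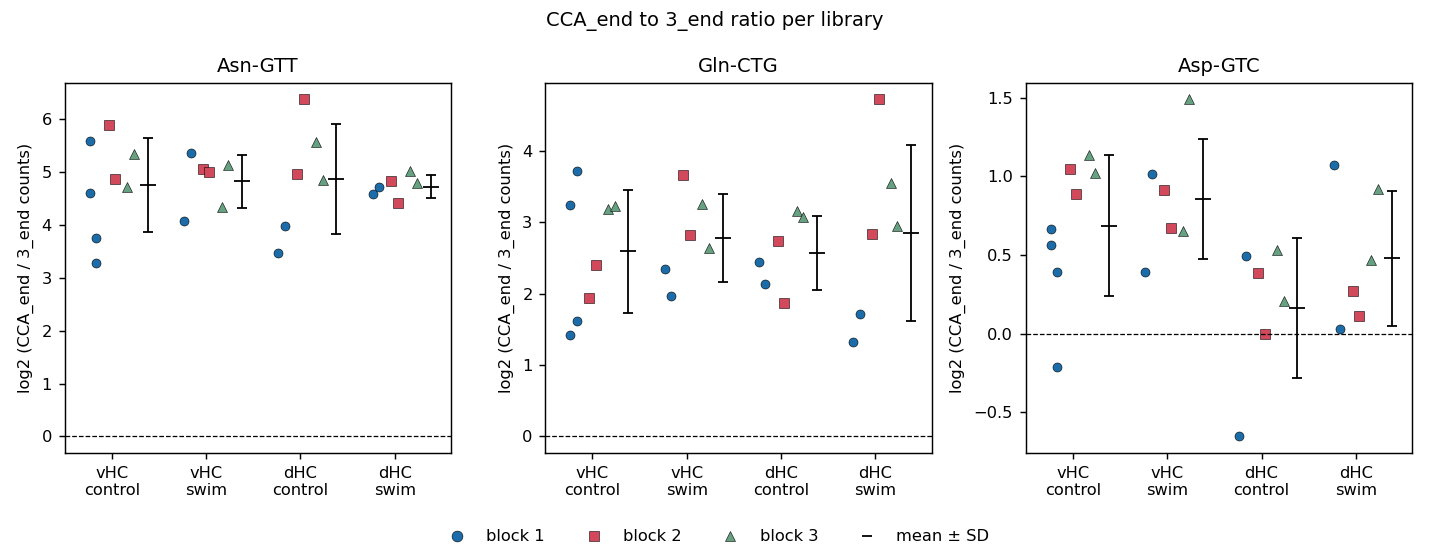
Log2 ratio of matched CCA_end to 3_end counts (pseudocount 0.5) per library in the 4 groups, for Asn-GTT, Gln-CTG and Asp-GTC. Points are libraries colored by block, bars are mean ± SD, and the dashed line marks equal counts. All Asn-GTT and Gln-CTG libraries are above it, and the Asp-GTC values of control dHC (-0.65 to 0.53) lie lower than those of control vHC (-0.21 to 1.13) but overlap them.

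The study sequenced small RNAs to look for miRNAs that might act in the loss of transcripts after an acute swim stress, and here the swim and control libraries were compared for the tRNA fragments. The test passed for 0 of the 18 tested entries, and for 0 of all 619 tested entries of the table (0%), when stress and interaction were tested together in edgeR (quasi-likelihood, Benjamini-Hochberg adjusted). At an unadjusted p under 0.05 there were 1 of the 18 and 24 of the 619. DESeq2 with the same covariates also called 0 of the fragments and, over all 619 entries, 0 jointly, 1 in vHC and 0 in dHC. Tested within a region, 3 of 18 had an unadjusted p under 0.05 in vHC and 0 in dHC, against 44 and 25 of 619.

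Asn-GTT CCA_end, the most abundant fragment, overlapped between all groups. It had 118 to 242 CPM in control vHC (median 139), 104 to 157 in swim vHC (median 141), 109 to 176 in control dHC (median 151) and 126 to 362 in swim dHC (median 157). The log2 fold change with stress was -0.24 (SE 0.182) in vHC and 0.21 (SE 0.196) in dHC. The dHC value rested on swim dHC library 6, which had 362 CPM where the next library of its group had 168, and without it was 0.00. Met-CAT CCA_end was the most precise entry, with -0.05 (SE 0.128) in vHC and -0.01 (SE 0.140) in dHC.

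Gln-CTG CCA_end had 16.9 to 38.1 CPM in control vHC (median 26.9), 23.1 to 36.5 in swim vHC (median 30.6), 13.3 to 47.8 in control dHC (median 33.3) and 24.02 to 52.0 in swim dHC (median 33.0). Its log2 fold changes were 0.17 (SE 0.185) and 0.15 (SE 0.193). Ala-TGC 3_end, the fragment with the strongest 3_end bias, had medians of 11.4, 10.7, 12.3 and 12.98 CPM in the same order of groups and log2 fold changes of -0.04 (SE 0.159) and -0.10 (SE 0.164). The ranges of all 4 groups overlapped in Gln-CTG CCA_end and in Ala-TGC 3_end.

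The smallest p for stress belonged to Asp-GTC 3_end. It had 12.9, 14.9, 15.2, 15.7, 16.9, 18.6, 18.8 and 19.6 CPM in the control vHC libraries and 7.69, 7.87, 8.42, 13.8, 14.5 and 15.7 in the swim vHC libraries. Of the swim libraries 3 were under every control library and 3 were inside their range. The log2 fold change in vHC was -0.51 (SE 0.166, unadjusted p = 0.0046, edgeR with Benjamini-Hochberg adjusted p = 0.623). Within blocks 1, 2 and 3 it was -1.11, 0.08 and -0.67. In dHC it was -0.13 (SE 0.167).

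Other entries with small p for stress were no closer to passing. The log2 fold change in vHC was -0.73 (SE 0.286) in Cys-GCA 3_end, 0.56 (SE 0.270) in Phe-GAA CCA_end and -0.38 (SE 0.233) in Asp-GTC CCA_end, with edgeR Benjamini-Hochberg adjusted p = 0.623, 0.660 and 0.700. Phe-GAA is a tRNA that can prime reverse transcription of some retroelements, though its CCA_end entry shares reads with that of Ser-GGA. The Phe-GAA CCA_end entry had 0.494 to 5.12 CPM in control vHC (median 3.08) and 3.55 to 5.38 in swim vHC (median 3.82). Its 3 within-block differences were 0.27, 1.14 and 1.19. Thr-AGT 3_end in dHC had a log2 fold change of 0.47 (SE 0.241, edgeR adjusted p = 0.976).

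Precision limits these statements. The 95% interval of the fold change lay within 2-fold in either direction for 15 of 18 entries in vHC and 18 of 18 in dHC, and within 1.5-fold for 4 and 6. These counts include Ala-TGC 3_end, for which the edgeR p-value was larger than the SE implies, so they may overstate precision. The median SE was 0.233 and 0.248, against 0.153 and 0.160 over all 619 entries. The median log2 fold change of the 18 entries was -0.08 in vHC and 0.13 in dHC, beside -0.05 and 0.01 over all 619. For the 103 entries that the filter left out, counts were low, so a change with stress could be missed. Without the filter, 0 fragments passed for stress.

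Described by the kind of tRNA, 0 of the tested entries of any list passed for stress. Of 19 entries of tRNAs that prime LTR retroelements (Lys-TTT, Lys-CTT, Pro, Phe-GAA and Trp-CCA) 1 was tested, Phe-GAA CCA_end, and the list held 3.19% of the counts. Of 28 entries of tRNAs with a long variable arm (Leu, Ser and SeC) 1 was tested, Ser-GCT CCA_end, with log2 fold changes of -0.23 in vHC and -0.27 in dHC. Anticodons whose base A is read as inosine had 2 of 23 tested, both of Thr-AGT, Leu-CAG had 0 of 3, and no entry was named as initiator Met. The medians in vHC and dHC were 0.18 and 0.01 for 4 hydrophobic, -0.11 and 0.15 for 11 polar and -0.38 and 0.13 for 3 charged amino acid entries. None of the 37 5_end and 69 whole tRNA entries tested passed either.

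Between the dHC and vHC of control mice 0 of 18 fragments passed, while 96 of 619 entries (15.5%) did in the same test (edgeR's quasi-likelihood test with block as a covariate, Benjamini-Hochberg adjustment). Of the 18 fragments 3 had an unadjusted p under 0.05, against 188 of the 619, and DESeq2 called 0. Of the 96 entries, 29 were higher and 67 lower in dHC, and with RLE scaling 56 were higher and 57 lower. The 5_end entries had 0 of 37 and the whole tRNA entries 1 of 69 called, and 92 of the 96 were miRNA entries. In bulk tissue, fewer cells of a type and less RNA per cell cannot be told apart.

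Among the fragments that passed the filter, those nearest to a regional difference were Met-CAT and Ser-GCT CCA_end, both lower in dHC in the fit. Met-CAT CCA_end had 19.8 to 60.5 CPM in control vHC (median 31.7) and 15.1 to 37.9 in control dHC (median 33.5), with a log2 difference of -0.41 (SE 0.170, edgeR Benjamini-Hochberg adjusted p = 0.107) and -0.55, -0.40 and -0.27 within blocks, although the medians, which mix blocks, were in the other order. With 2 surrogate variables in place of block its sign changed, to 0.09, and the second of those variables followed region (50.8% of its variance). Ser-GCT CCA_end had 3.71 to 10.9 CPM (median 6.02) against 0 to 7.56 (median 4.304), with -0.57 (SE 0.256, edgeR adjusted p = 0.128). It passed when control dHC library 18 was left out (-0.82, edgeR adjusted p = 0.0495).

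The matched and unmatched Asp-GTC CCA_end entries gave -0.47 (SE 0.248) and -0.57 (SE 0.279), and the Asp-GTC 3_end entry gave 0.00 (SE 0.193). The unmatched Thr-AGT CCA_end entry gave 0.67 (SE 0.323). With edgeR and Benjamini-Hochberg adjustment these had adjusted p = 0.203, 0.172, 0.993 and 0.160. The matched CCA_end and the 3_end entries of Asp-GTC are the terms of the ratio described above.

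**Figure D3:**
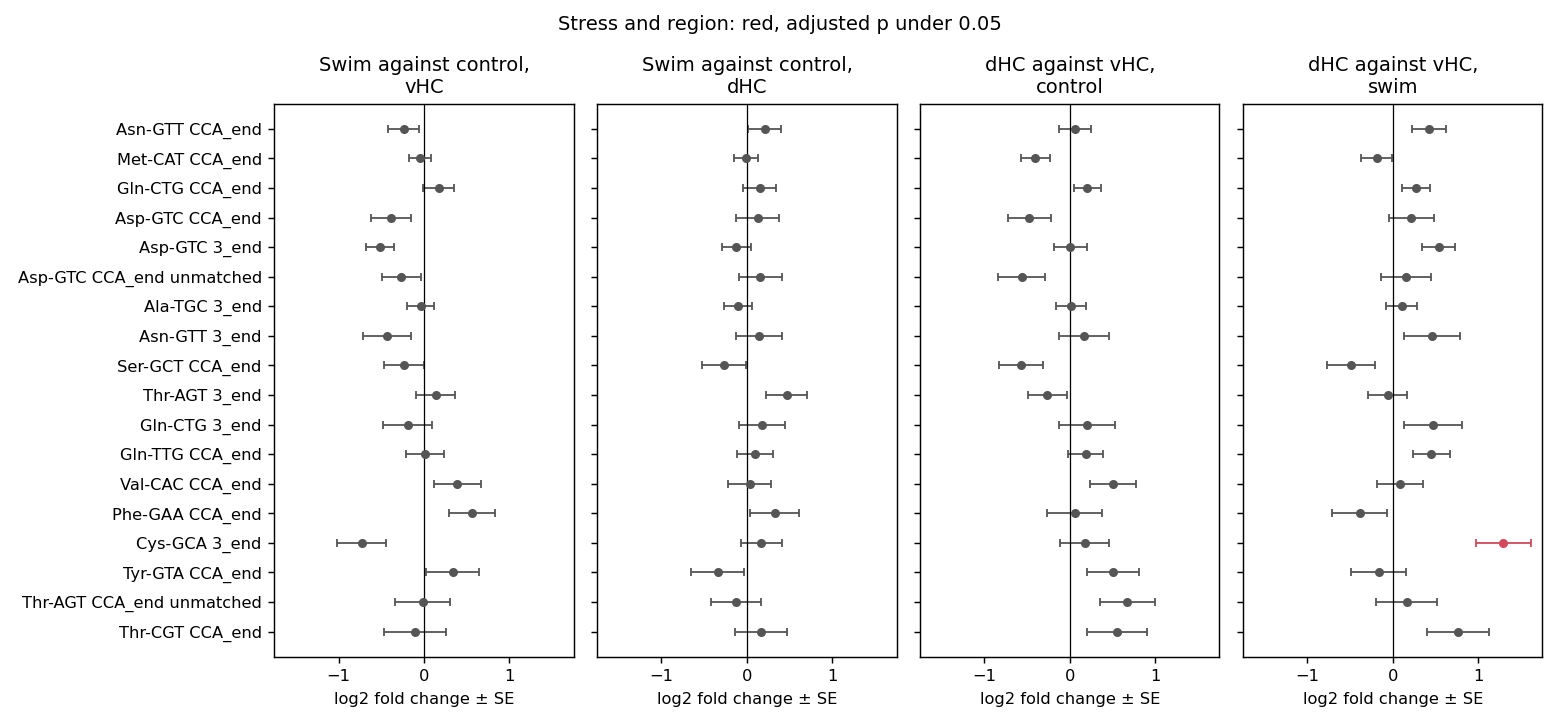
Log2 fold change ± SE of the 18 tested entries for swim against control in vHC and in dHC and for dHC against vHC in control and in swim mice, ordered by mean level. Red marks an adjusted p under 0.05, which only Cys-GCA 3_end reached, after swim (1.29, SE 0.324).

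In swim mice 85 of 619 entries (13.7%) differed between the regions, and 1 of 18 fragments did. This was Cys-GCA 3_end, higher in dHC, beside 26 of 619 entries (4.2%) higher and 59 (9.53%) lower there. Cys-GCA delivers cysteine, and its 3_end entry is the scarcest of the 3_end entries tested, with a mean of 8.69 counts a library and at most 28. It is named because it was the call made, after its value was seen. The swim vHC libraries had 1.12, 1.15, 1.21, 1.78, 2.15 and 2.39 CPM and the swim dHC libraries 1.74, 2.16, 3.29, 4.54, 5.49 and 5.54. The 2 lowest dHC libraries lay within the vHC range and the 4 others above it.

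Its log2 difference was 1.29 (SE 0.324), or 2.45-fold, with an edgeR Benjamini-Hochberg adjusted p = 0.0065, and within blocks 0.86, 0.67 and 1.48. In control mice the same difference was 0.17 (SE 0.286), with 1.48 to 8.22 CPM in vHC and 1.71 to 5.04 in dHC. The change of the regional difference with stress did not pass (interaction, edgeR adjusted p = 0.880), so the regions were not shown to differ only after swim. Without block as a covariate the call was lost (1.15, edgeR adjusted p = 0.0531).

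The remaining 17 fragments did not pass in swim mice, and the median log2 difference of the 18 was 0.19, beside 0.03 over all entries. Without swim vHC library 19 Asp-GTC 3_end passed as well, and without swim dHC library 16 Asn-GTT CCA_end did. Summed miRNAs of oligodendrocytes and of muscle reached higher in dHC, with ranges that overlapped in control and in swim mice, and no test was run on them. The oligodendrocyte miRNAs mir-219a and mir-338, both detected, summed to 3111 to 4491 CPM in control vHC, 3244 to 4398 in swim vHC, 4274 to 6719 in control dHC and 4287 to 6236 in swim dHC. The 4 muscle miRNAs summed to 663 to 883, 691 to 1103, 750 to 1225 and 945 to 1430. Most of this sum was mir-1a, and mir-206 went the other way, with 3.57 to 10.8 CPM in vHC and 0.657 to 6.57 in dHC. The part of the oligodendrocyte and muscle miRNAs in the Cys-GCA and Asp-GTC values was not tested. The miRNAs of immune cells (141.5 to 474 CPM), red blood cells (525 to 939) and the summed choroid plexus list (1482 to 5131) overlapped between the groups. Within the red blood cell list mir-486 had 224.1 to 483.8 CPM in vHC and 145.7 to 318.3 in dHC. Both mir-144 and mir-451a went the other way, with maxima of 126.2 and 486.8 CPM in vHC and 170.8 and 565.7 in dHC. Within the choroid plexus list mir-200b did not overlap between regions, with 151.4 to 281.7 CPM over the vHC libraries and 39.3 to 117.5 over the dHC libraries. For mir-200a the ranges were 62.0 to 171.8 and 36.1 to 102.9, and for mir-429 47.6 to 180.2 and 20.1 to 103.5. The other members, mir-204, mir-211 and mir-449a, went the other way. Their maxima were 1582, 763 and 6.76 CPM in vHC and 3284, 1545 and 12.7 in dHC. The part of these miRNAs in the regional values was not tested.

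**Figure D4:**
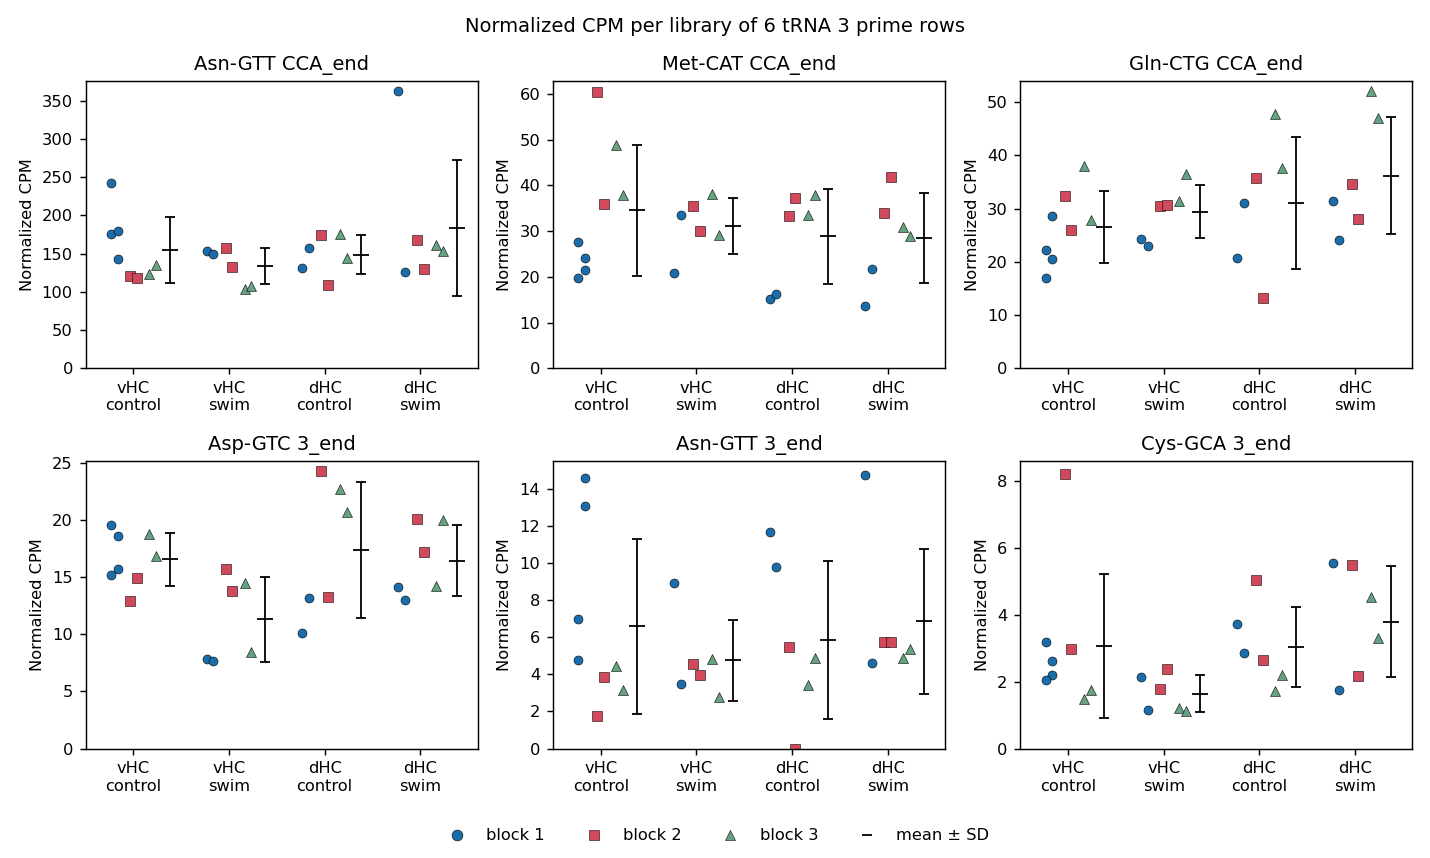
Normalized CPM per library in the 4 groups for 6 entries, with points colored by block and bars giving mean ± SD. Asn-GTT CCA_end has its highest value, 362 CPM, in a swim dHC library of block 1, and Met-CAT CCA_end in block 1 lies between 13.5 and 33.4 CPM and overlaps the other blocks in swim vHC.

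More fragments passed for block than for stress or region. Of the 18 tested entries 11 differed between blocks, 4 of 6 3_end and 7 of 12 CCA_end entries, beside 293 of 619 (47.3%), so the share of fragments stood close to that of the whole table at this number of entries. Among the 5_end entries it was 11 of 37 and among the whole tRNA entries 25 of 69. Between blocks 2 and 1, 10 of 18 differed beside 292 of 619 (47.2%), and between blocks 3 and 1, 11 of 18 beside 269 (43.5%). Between blocks 3 and 2 it was 0 of 18 and 0 of 619 (0%), with 3 and 57 at an unadjusted p under 0.05. These tests were edgeR quasi-likelihood tests, Benjamini-Hochberg adjusted, and block 1 was in each pair that gave calls.

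The direction depended on the tRNA. Block 2 exceeded block 1 in 6 of its 10 called entries and lay under it in 4, and block 3 did so in 7 and 4 of its 11. Over all entries block 2 was above block 1 in 125 (20.2%) and below it in 167 (27%), and block 3 in 108 (17.4%) and 161 (26%), the latter 137 and 134 with TMMwsp scaling. Every CCA_end entry of Met, Gln and Asp that passed was higher in the later blocks, and Asn-GTT, Phe-GAA and the unmatched Thr-AGT entries that passed were lower.

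Met-CAT CCA_end showed the smallest p. It had 13.5 to 33.4 CPM in the 10 libraries of block 1 (median 21.2), 29.98 to 60.5 in block 2 (median 35.7) and 29.03 to 48.9 in block 3 (median 35.7). Block 1 reached into the range of the others with its highest value. The log2 differences from block 1 were 0.88 (SE 0.148) and 0.79 (SE 0.147), with an edgeR Benjamini-Hochberg adjusted p = 3.3e-05 for block. Gln-TTG CCA_end moved by 0.87 (SE 0.186) and 0.86 (SE 0.186).

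Gln-CTG CCA_end, which shares reads with Gln-TTG, had medians of 23.5, 30.6 and 37.8 CPM in blocks 1 to 3. Its difference from block 1 was 0.29 (SE 0.141, edgeR adjusted p = 0.097) in block 2 and 0.67 (SE 0.139, edgeR adjusted p = 0.00032) in block 3. The unmatched Asp-GTC CCA_end entry rose by 0.92 (SE 0.248) and 1.10 (SE 0.242), from a median of 6.92 CPM to 14.5 and 17.1, and the matched entry by 0.58 (SE 0.219) and 0.77 (SE 0.214). The Ala-TGC 3_end entry rose by 0.61 (SE 0.155) and 0.55 (SE 0.154).

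Asn-GTT 3_end went the other way. It had 3.46 to 14.8 CPM in block 1 (median 9.38), 0 to 5.76 in block 2 (median 4.27) and 2.81 to 5.39 in block 3 (median 4.64). The log2 differences were -1.04 (SE 0.267) and -1.13 (SE 0.267), with an edgeR Benjamini-Hochberg adjusted p = 0.00088 for block. Its 0 was in control dHC library 24, where 7.95 CPM could have been missed. Asn-GTT CCA_end, with -0.37 (SE 0.165) and -0.41 (SE 0.164), did not pass for block as a whole.

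The unmatched Thr-AGT CCA_end entry fell by 1.27 (SE 0.298) in block 2 and by 1.01 (SE 0.286) in block 3 on the log2 scale. For Phe-GAA CCA_end the values were -0.90 (SE 0.281) and -0.70 (SE 0.273). Thr-AGT 3_end fell in block 2 (-0.73, SE 0.206), and its value in block 3 was -0.12 (SE 0.191). Cys-GCA 3_end passed for block with 0.60 (SE 0.249) and -0.20 (SE 0.272), neither of which passed by itself. The share of rRNA entries in the library moved with block too, with medians of 4.13, 5.49 and 6.48%. Its part in these values was not tested.

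**Figure D5:**
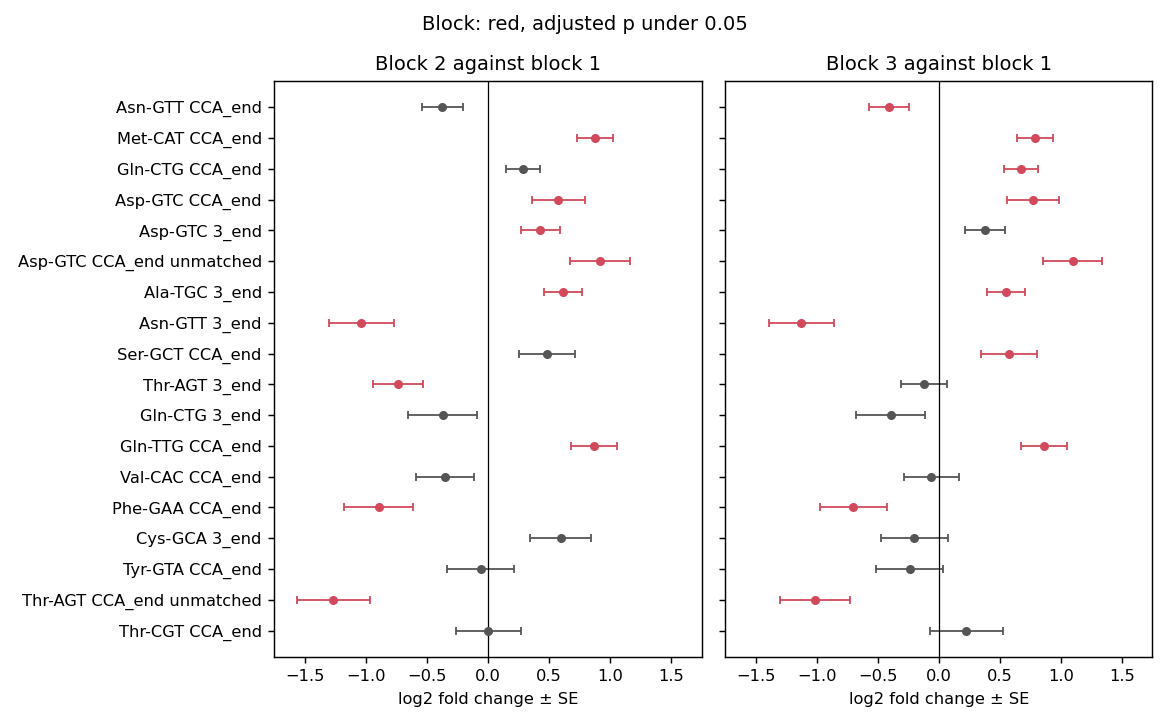
Log2 difference ± SE of the 18 tested entries for block 2 and block 3 against block 1, ordered by mean level. Red marks an adjusted p under 0.05, and points lie on both sides of 0, with Met-CAT CCA_end at 0.88 and 0.79 and Asn-GTT 3_end at -1.04 and -1.13.

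The CCA_end to 3_end ratio was not called between blocks. Against block 1 the log2 ratio differed by 0.84 in block 2 and 0.64 in block 3 in Asn-GTT, by 0.68 and 0.94 in Gln-CTG and by 0.20 and 0.46 in Asp-GTC, with limma Benjamini-Hochberg adjusted p = 0.0605, 0.0605 and 0.0729. The per-library log2 ratio of Asn-GTT was 3.28 to 5.59 in block 1 (median 4.33), 4.41 to 6.38 in block 2 (median 4.99) and 4.34 to 5.57 in block 3 (median 4.93). With library quality weights all 3 names passed (limma adjusted p = 0.0359).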

How the data were processed

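Small RNA libraries of mouse dHC and vHC (26) were made from Trizol extracts with the Nextflex v3 kit, in 3 batches of both regions and conditions. To make the table, the authors used cutadapt for adapters, counted copies of a read with the same molecular tag once, and named the RNA of each read with Sports 1.0. The deposited values are expected counts per annotated RNA, not normalized, and 29.5% are not whole. They were rounded for the count tests. No column was left unmatched (0), no 2 columns were identical, and libraries numbered 2, 3, 4, 10, 11 and 12 were not analysed here.

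The tools were DESeq2 1.42.0, sva 3.50.0, limma 3.58.1 and edgeR 4.0.16 in R 4.3.3, with matplotlib 3.10.9 in Python 3.11.15 for figures. Library size was the sum of miRNA, whole tRNA and rRNA entries, which end entries were taken to be part of, with TMM scaling. CPM are normalized by it. filterByExpr (minimum count 10, minimum total 15, 4 groups) left 619 of 1360 entries, on which every test was fitted and adjusted by the Benjamini-Hochberg method with a threshold of 0.05. Stress was tested with region, interaction and 2 surrogate variables, as the study's methods state, region with block as a covariate, and block with region and stress. The surrogate variables followed block (73.6% of the variance of the first) and region (50.8% of the other). Ratios of matched CCA_end to 3_end counts, with a pseudocount of 0.5 and means of at least 10, were tested with limma over all tRNA names of the table that passed (3). Within-block differences are of mean log2 CPM. The procedure was tested on simulated counts.

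Named entries are the 5 highest of each end type by mean CPM and the 5 with the smallest p for stress, for region and for block. Members, lists and alternatives were chosen with earlier results of these data known. The table gives no sequences or coordinates. Alternatives changed scaling, filter, covariates, library size, tool, pseudocount, minimum mean and libraries. After seeing the data, a minimum mean of 3, summed matched and unmatched entries and the permutation test were added.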

Additional observations from a re-analysis of the deposited data

Results flagged for a closer look

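Of 100 checks of a group's highest or lowest library against the rest, 5 passed Dixon's 95% critical value, which chance gives for about 1 in 20. They involve Asn-GTT, its share of the 3′ side and Cys-GCA. Asn-GTT CCA_end was 362.1 normalized CPM in swim dHC library 6, where the nearest library of the group had 167.7. In the same library Asn-GTT 3_end was 14.78 CPM (nearest 5.758) and Asn-GTT CCA_end was 62.23% of the 3′ side counts (nearest 41.8%). Asn-GTT 3_end was 8.945 CPM in swim vHC library 5 (nearest 4.829), and Cys-GCA 3_end was 8.218 CPM in control vHC library 17 (nearest 3.179). Both Asn-GTT libraries belong to block 1, where Asn-GTT 3_end was higher.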

How the results depend on the processing

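Stress called 0 of the fragments under each of 8 alternatives and with each of 26 libraries left out, jointly and within vHC and dHC, with the smallest adjusted p between 0.242 and 1. For region in control mice the count of 0 became 2 with no filter (His-GTG CCA_end and Tyr-GTA 3_end) and 3 with 2 surrogate variables in place of block (Cys-GCA 3_end, Gln-TTG CCA_end and Thr-AGT 3_end), and was 0 to 1 with a library left out. Met-CAT CCA_end turned to 0.09 with surrogate variables. After swim the count of 1 became 0 without block and 4 with surrogate variables, where Cys-GCA 3_end stayed among those called, and was 1 to 2 with a library left out. Cys-GCA 3_end ranged from 1.10 to 1.47 then and was 1.15 without block (adjusted p = 0.0531). Block gave 11 to 13 calls under 5 alternatives and 10 to 13 with a library left out, and Gln-CTG CCA_end in block 2 passed with RLE scaling (0.33, adjusted p = 0.0491).

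Without block, and with the exact permutation test, 0 ratios were called by region, with a log2 difference of -0.53 in Asp-GTC, and with a minimum mean of 3 it was 0 as well (-0.58, adjusted p = 0.222). Leaving out a library gave 0 to 1, and -0.715 to -0.436 in Asp-GTC. CCA_end against 3_end was called in 1 name with a minimum mean of 30, where 1 was left, and in 5 with 3, Gly and Glu not counted. By block, quality weights called 3 and summed CCA_end entries 1, and a left-out library gave 0 to 3. Signs that turned were not called in any setting: the Asn-GTT ratio for stress in vHC (0.0743 without block and by permutation, -0.299 to 0.112 with a library left out), for stress in dHC (0.163 with a pseudocount of 2, -0.341 to 0.114) and for region (0.115 without block and by permutation, -0.25 to 0.213), and the Gln-CTG ratio for stress in vHC (-0.115 to 0.257), stress in dHC (-0.102 to 0.495) and region (-0.329 to 0.0433). For these changes the cause was not tested.

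No paired analysis was possible because the groups share no replicate numbers and the labels do not tie libraries to a mouse. Stress, region and block were thus tested as if all libraries were independent. Depth is the main limit: 103 of 121 entries did not pass the filter on low counts, only 3 tRNA names had both ends deep enough for a ratio, and the reads of similar tRNAs are shared between entries.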
